A study of Homo sapiens with 10 samples.

Results

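A set of 53 genes of DNA replication and of the step from G1 to S phase was followed in RNA-Seq libraries of EA.hy926 cells, an established human line made by fusing umbilical vein endothelial cells with A549 lung carcinoma cells. The genes were taken by symbol from a fixed list that leaves out chromosome segments in which neighbouring genes had shifted together, and all 53 were found among the 27946 symbols of the table, on 20 chromosomes, and all passed the filter on low values. The 10 libraries fall into 4 groups. The VEGFA-LNC deletion group held 3 clones in which CRISPR/Cas9 and a pair of guide RNAs had removed the promoter of VEGFA-LNC, an antisense transcript inside the VEGFA gene. The VEGFC-LNC deletion group held 3 clones that lacked the promoter of VEGFC-LNC, a transcript upstream of VEGFC, and in either group the deletion was on both alleles. Each deletion had its own 2 control libraries, from cells that were given guide RNAs without Cas9 and were carried through the same clonal selection. All 10 libraries are thus of clonally selected cells that met guide RNAs, each clone is a single line, and no label says whether the 2 controls of a set are separate clones, so that p-values measure the spread between these libraries.

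Replication begins when the origin recognition complex, CDC6 and CDT1 load the ring of MCM2 to MCM7 onto DNA in G1 phase. At the start of S phase CDC7 and the cyclin-dependent kinases switch the ring on with CDC45, the GINS complex and MCM10. DNA polymerases alpha, delta and epsilon then copy the opened strands, and the sliding clamp PCNA holds delta and epsilon to them. Most of these genes are targets of the E2F transcription factors, which the retinoblastoma protein RB1 restrains until cyclins D and E have phosphorylated it, so that their transcripts are low in resting cells and high in dividing ones. In endothelium they are known as a readout of growth, since the cells of a quiet vessel rarely enter S phase.

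The values are FPKM, reads scaled to transcript length and to the reads of the library, and each library rested on between 6743973 and 24197605 reads. The 13334 genes with at least 1 cpm (reads scaled to library size) in at least 2 libraries were fitted together as log2(FPKM + 0.1) with limma, and a gene was called at a false-discovery rate (FDR) under 0.05 with a fold change of at least 1.5. The 2 controls of a set lay close together, with a median SD over the 53 genes of 0.059 on the log2 scale in the VEGFA-LNC controls and 0.039 in the VEGFC-LNC controls. The clones did not. Their median SD was 1.21 in the VEGFA-LNC deletion group and 0.66 in the VEGFC-LNC deletion group, against 0.29 and 0.25 over all tested genes. The 13 endothelial markers summed to 582 to 639 FPKM in the controls, 409 to 1095 FPKM in the VEGFA-LNC deletion clones and 612 to 1185 FPKM in the VEGFC-LNC deletion clones, with CLDN5 listed at 0 in all libraries. ENG and CDH5 were the highest of them in each library. In the controls KDR was at 0.036 to 0.164 FPKM and VWF at 0.772 to 1.21 FPKM. In clones 1, 2 and 3 KDR was at 0.046, 1.39 and 0.545 FPKM upon VEGFA-LNC deletion and 0.038, 1.33 and 0.844 FPKM upon VEGFC-LNC deletion. VWF was at 0.65, 8.78 and 4.74 FPKM and at 0.716, 3.41 and 3.88 FPKM in the same clones. Both were thus above the controls in the second and the third clones and not in the first. EMCN was at 4.83 to 6.74 FPKM in the controls and 0.022 to 1.54 FPKM in the clones of both sets. CDH5 was at 111 to 119 FPKM in the controls and 56.6 to 312 FPKM in the clones. Epithelial markers of the carcinoma parent summed to 898 to 1087 FPKM in the controls, 487 to 1311 FPKM in the VEGFA-LNC deletion clones and 439 to 866 FPKM in the VEGFC-LNC deletion clones. KRT7, KRT8 and KRT18 carried these sums, and KRT19, EPCAM and CDH1 were each under 1 FPKM in all libraries. The part of the spread of the marker sums in the results was not tested. Markers of fibroblasts and of blood cells each summed to under 1 FPKM. The levels of the 2 deleted transcripts were not analysed here.

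The 53 genes lay on both sides of their controls in the VEGFA-LNC deletion clones and below them in the VEGFC-LNC deletion clones. In the first VEGFA-LNC deletion clone they were higher than in their controls, with a median log2 difference of 1.06, and 52 of 53 lay above both controls, against 43.1% of all tested genes. In the second clone the median was −1.22 and 48 lay below both controls, against 53.8%, and in the third it was −0.73 with 46 below both, against 48.5%. All 3 VEGFC-LNC deletion clones were on one side of their controls, with medians of −0.51, −1.75 and −1.43 in clones 1, 2 and 3 and 50, 53 and 53 genes below both controls, against 50.1%, 57.3% and 48.7% of all tested genes. Over all tested genes the same medians were between −0.16 and −0.03. In the VEGFC-LNC controls the genes were in turn higher than in the VEGFA-LNC controls by a median of 1.18 on the log2 scale. The summed level of the 53 genes was 661 and 682 FPKM in the VEGFA-LNC controls, 1296, 422 and 531 FPKM in the clones of that set, 1289 and 1296 FPKM in the VEGFC-LNC controls and 966, 428 and 596 FPKM in their clones. In summed level the first VEGFA-LNC deletion clone was thus level with the VEGFC-LNC controls, and the second and the third clones of both sets were the 4 lowest libraries. PCNA alone gave 244 FPKM of the sum in that first clone, against 179 and 194 FPKM in the VEGFC-LNC controls. Gene by gene, the first VEGFA-LNC deletion clone reached the lower VEGFC-LNC control in 19 of the 53, against 64.3% of all tested genes. Its median log2 difference from the mean of those controls was −0.091. In bulk RNA a smaller share of cells in S phase and less transcript per cell cannot be told apart.

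**Figure D1:**
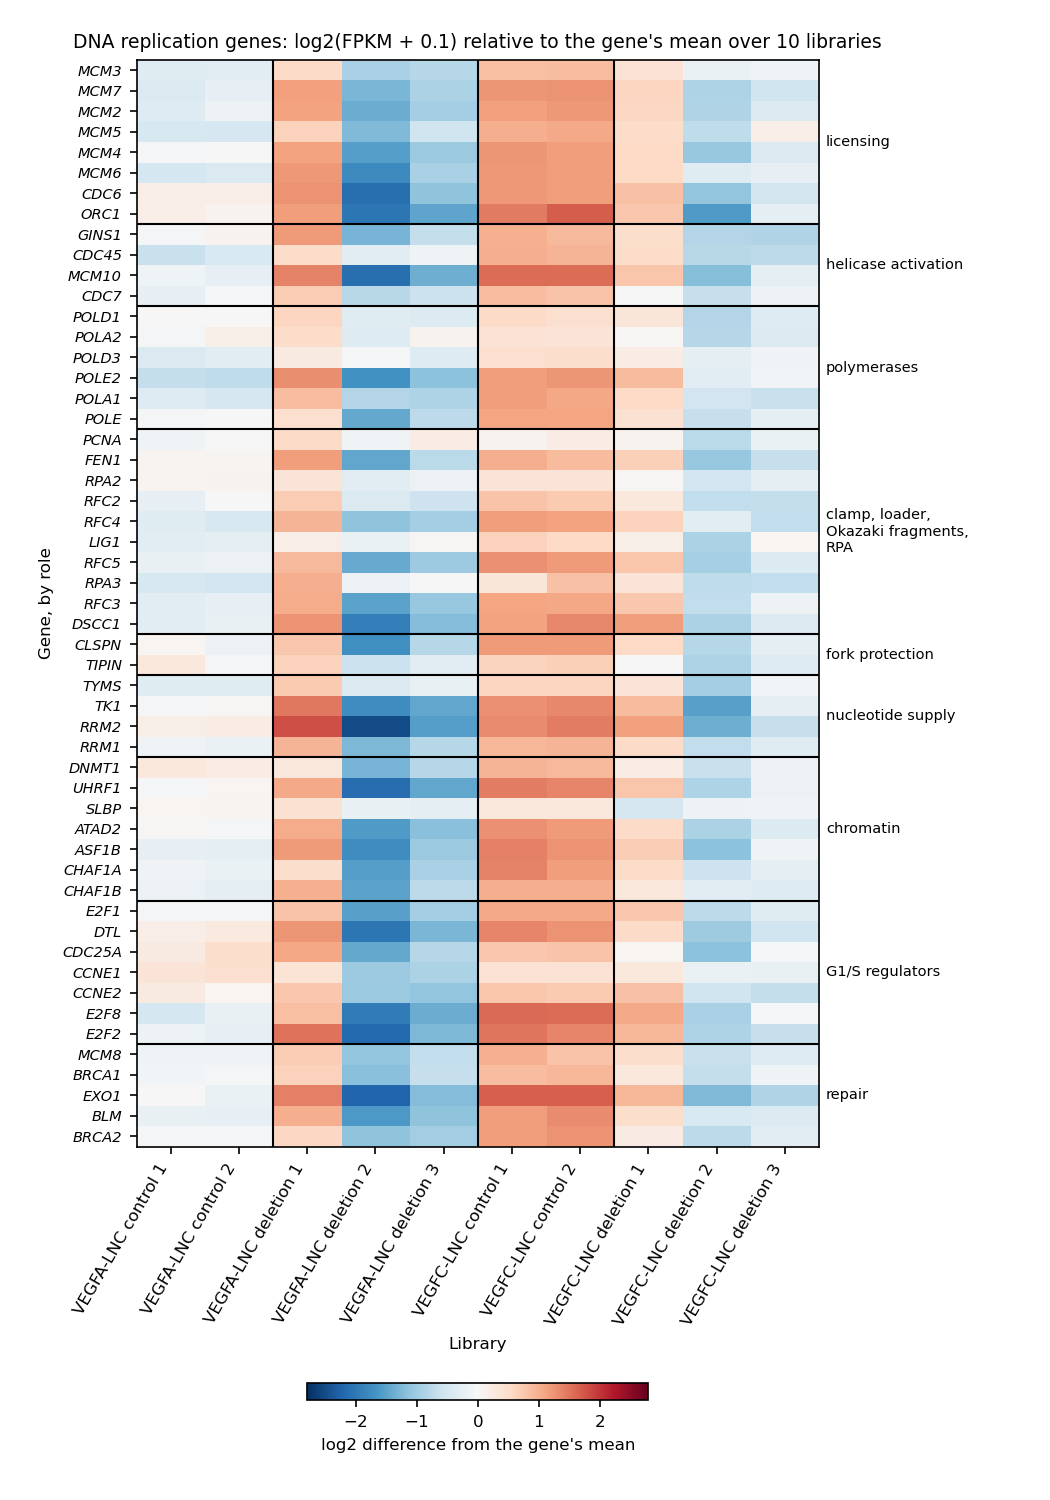
Heatmap of the 53 genes (rows, grouped by role) in the 10 libraries (columns), coloured by the log2 difference of FPKM + 0.1 from the gene's own mean over the libraries. The first VEGFA-LNC deletion clone and both VEGFC-LNC controls are red in most rows, and the second and the third clones of both sets are blue in most rows.

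The order of the clones was shared between the sets. The first clone was the highest of the 3 in 53 of 53 genes in the VEGFA-LNC deletion group and in 52 of 53 in the VEGFC-LNC deletion group, the exception being SLBP, against 44.9% and 41.2% of all tested genes. Clone 1 above clone 3 above clone 2 was the order of 43 genes in both sets at once, and of 12.3% of all tested genes. Across the 53 genes, the differences from own controls correlated between the second clones of the sets with r = 0.74 and between the third clones with r = 0.57, and between the first clones with r = −0.042. These are correlations across genes that share libraries, over all tested genes they were 0.43, 0.35 and −0.23, and the labels do not say whether clones of the same number were handled together.

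**Figure D2:**
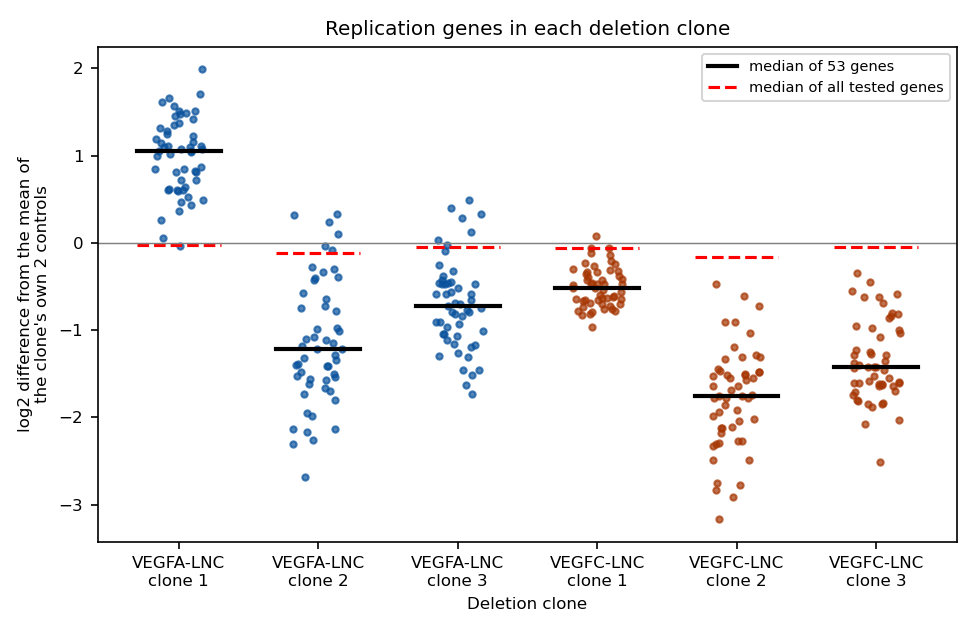
Each point is 1 of the 53 genes in a deletion clone, plotted as the log2 difference of FPKM + 0.1 from the mean of the clone's own 2 controls, with the median of the 53 genes as a black bar and the median of all tested genes as a red dashed bar. The medians are 1.06, −1.22 and −0.73 in the VEGFA-LNC deletion clones and −0.51, −1.75 and −1.43 in the VEGFC-LNC deletion clones.

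The question of the first comparison was whether loss of the VEGFA-LNC promoter moved these genes. None of the 53 was called with limma, against 2.75% of all tested genes called, and the lowest FDR was 0.225. Unadjusted, 1 gene, CCNE1, had a p under 0.05, against 19.8% of all tested genes, and limma-voom on the reads recovered from the table also called 0. The median log2 fold change was −0.29, with 41 genes lower and 12 higher, and the range ran from −0.94 for RRM2 to 0.78 for RPA3. Over all tested genes the median was −0.059. All 3 clones lay above both controls in 3 genes, CDC45, RPA3 and LIG1, which happened in 15.3% of all tested genes, and all 3 lay below both in 0 genes, against 23.7%. In 45 genes the first clone was above both controls and the others below both, a pattern of 15.0% of all tested genes. The comparison turned on that clone. Without it 7 genes were called, all lower (ATAD2, BLM, CCNE1, CDC25A, DNMT1, DTL and UHRF1), against 7.48% of tested genes called lower, and the median was −1.0. Without the second clone the median was 0.17, with 0 genes called.

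The second comparison asked the same of VEGFC-LNC. All 53 genes were lower in the clones than in their controls, against 59.0% of all tested genes, and the median log2 fold change was −1.25, against −0.091 over all tested genes. It ran from −2.05 for EXO1 to −0.44 for PCNA. In 50 genes all 3 clones lay below both controls, which held for 30.6% of all tested genes. The exceptions were DSCC1, RPA3 and CCNE2, in each of which the first clone reached into or above the range of the controls. None of the 53 was called, against 0.472% of all tested genes, the lowest FDR being 0.151 for CDC45, and limma-voom called 0 as well. Unadjusted, 15 genes had a p under 0.05, against 18.8% of all tested genes. The shared spread of the fit includes the first VEGFA-LNC deletion clone, and without that library 21 genes were called lower in the VEGFC-LNC comparison, against 5.6% of all tested genes. A fit of only the VEGFC-LNC clones and their controls, which also lacks that library, called 0 of the 53 and 26 genes over the table. Without the first VEGFC-LNC deletion clone 1 gene was called lower, CDC45, against 0.405% of all tested genes. Against all 4 controls as a group the median was −0.62 and 0 were called.

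Leaving out the first clone of both sets, a choice made after the values were seen, gave 37 genes called lower upon VEGFA-LNC deletion, against 12.0% of tested genes, and 52 upon VEGFC-LNC deletion, against 13.3%. In the VEGFC-LNC comparison SLBP was the gene not called. Those clones were the highest for these genes, so that leaving them out lowers the mean of the clones and narrows the spread by construction.

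**Figure D3:**
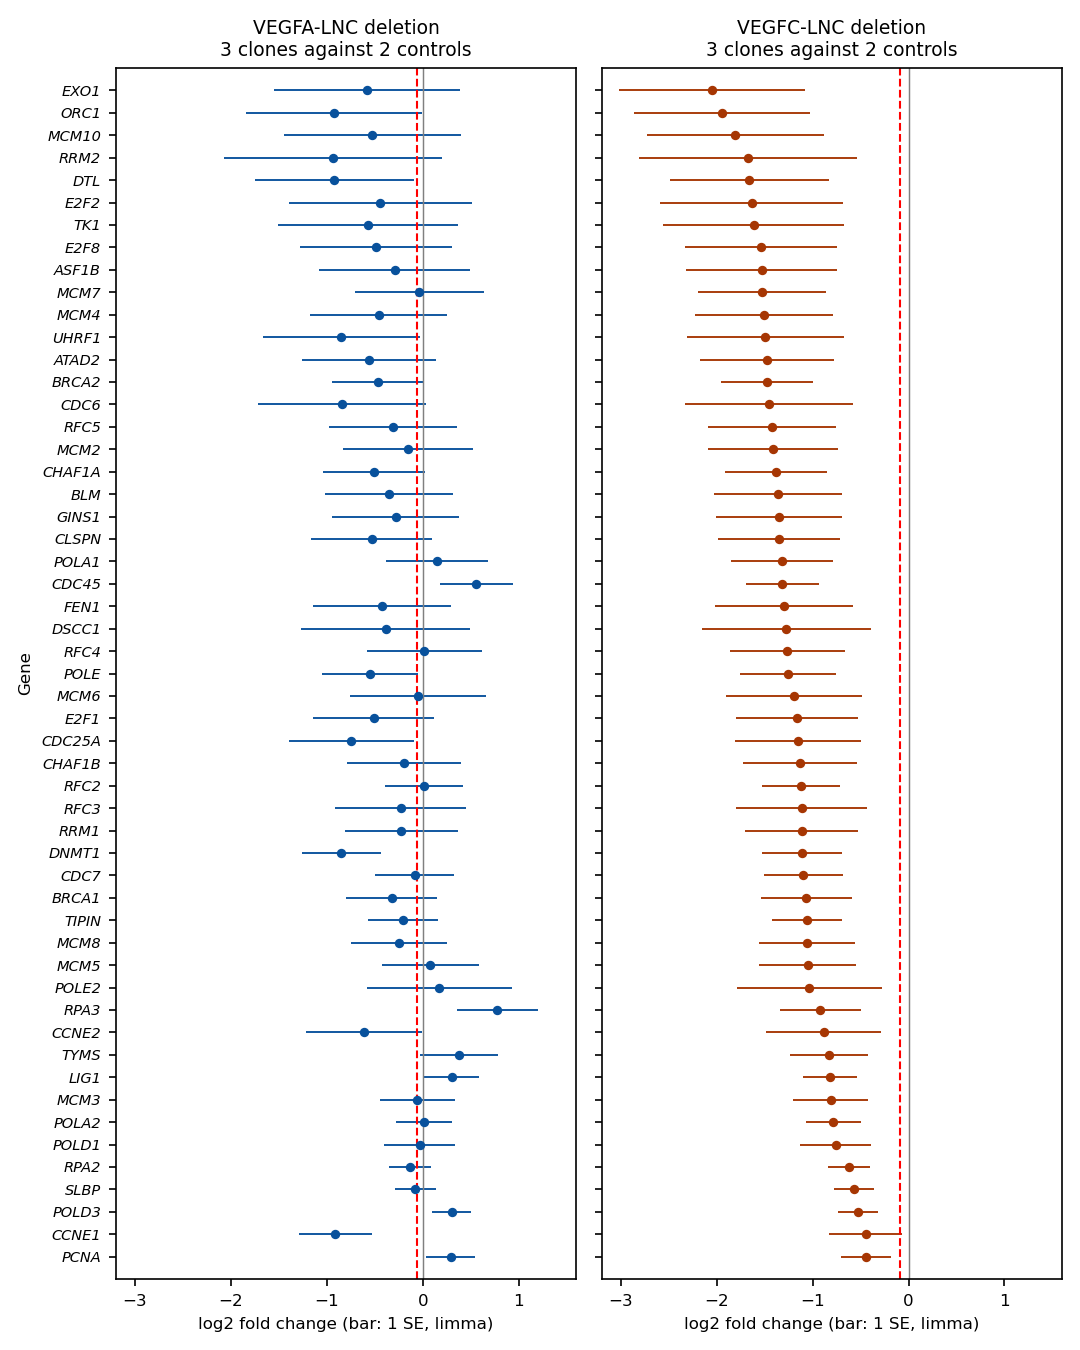
Log2 fold changes (points) with 1 SE (bars) from the limma fit of 10 libraries for the 53 genes, in the VEGFA-LNC deletion clones (left) and the VEGFC-LNC deletion clones (right), each 3 clones against 2 controls; the red dashed line is the median of all tested genes. On the right all 53 points lie below 0, from −2.05 for EXO1 to −0.44 for PCNA, and on the left 41 lie below 0.

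By their titles the controls of the 2 sets differ in the deletion they belong to, and other differences between them were not examined. The median log2 difference between them was 1.18, against −0.11 over all tested genes. All 53 genes were higher in the VEGFC-LNC controls by the fit, and in 52 of them both libraries lay above both VEGFA-LNC controls, against 33.7% of all tested genes. CCNE1 was the exception. Called as higher were CDC45 (log2 fold change 1.52, SE 0.42, FDR 0.0468) and POLD3 (0.82, SE 0.23, FDR 0.0459), 2 of 53 against 2.92% of all tested genes. These SE rest on the spread shared over all libraries, to which the clones add far more than the controls. When the 4 control libraries were fitted on their own, 45 were called higher, against 12.4% of all tested genes, and when each pair was averaged to 1 sample 0 were called. The call of CDC45 was lost without the third VEGFA-LNC deletion clone and that of POLD3 without the second, and neither was called without the second VEGFC-LNC deletion clone, without the third, or without any 1 control. Without the first VEGFA-LNC deletion clone 24 were called higher, against 7.37% of all tested genes. The second and the third VEGFC-LNC deletion clones were below both VEGFA-LNC controls in 41 genes, against 50.9% of all tested genes, and the first was above both in 46, against 32.0%. When the VEGFC-LNC effect was tested against the VEGFA-LNC effect, 0 of the 53 genes were called, against 1.45% of all tested genes, and the lowest FDR was 0.129, for CDC45. With the replicate number of clones and controls as a block, 86 genes were called in that test over the table in place of 194, and 0 of the 53. Unadjusted, 4 of the 53 had a p under 0.05 in the limma fit without the block, against 18.6% of all tested genes, and limma-voom called 0.

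The promoters of the genes were read for the letters that E2F factors bind, since most of the genes followed a common course over the libraries. RefSeq promoters of 300 bases, 250 before and 50 after the start, were at hand for 44 of the 53 and each was placed once, by exact match and on the strand of its gene, on hg19, 35 of them within 200 bases of the start in the table. At least 1 of the words TTTCCCGC, TTTCGCGC, TTTGCCGC and TTTGGCGC stood on either strand in 23 of 44, or 52.3%, against 3.33% of all 27305 promoters and 5.45% of those of tested genes. At least 2 matches, which may overlap, were found in 5 of the 44 and in 0.154% of all promoters. The letters CCAAT, which the factor NF-Y binds, stood in 54.5% against 35.7% and 36.9%, and the letters TTTGAA or TTCGAA of the cell cycle homology region, a mark of genes of G2 phase and mitosis, in 3 of 44, or 6.82%, against 16.6% of all promoters and 11.5% of those of tested genes. Matches are letters in these windows and say nothing of binding in these cells. The median log2 fold change upon VEGFC-LNC deletion was −1.19 in the 23 genes with E2F letters and −1.30 in the 21 without.

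Of the genes with E2F letters ahead of every start in the table, those 3 with the lowest fold changes upon VEGFC-LNC deletion are shown, with the E2F letters in capitals, 5′ to 3′ on the gene's strand and with any bases left out that a transcript of the table covers. E2F2 lies on the minus strand at chr1:23857726-23857975, POLA1 on the plus strand at chrX:24711785-24711949 and MCM6 on the minus strand at chr2:136634048-136634263, all on hg19. The E2F2 and POLA1 sequences hold 1 match each, and the 4 matches of MCM6 form 2 runs in which TTTGGCGC and the complement of TTTCGCGC share 4 letters.
E2F2: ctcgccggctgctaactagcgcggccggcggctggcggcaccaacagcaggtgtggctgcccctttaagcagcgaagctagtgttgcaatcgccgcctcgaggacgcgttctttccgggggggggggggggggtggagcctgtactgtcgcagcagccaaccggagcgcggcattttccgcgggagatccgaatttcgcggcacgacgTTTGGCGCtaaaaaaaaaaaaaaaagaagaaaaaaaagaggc
POLA1: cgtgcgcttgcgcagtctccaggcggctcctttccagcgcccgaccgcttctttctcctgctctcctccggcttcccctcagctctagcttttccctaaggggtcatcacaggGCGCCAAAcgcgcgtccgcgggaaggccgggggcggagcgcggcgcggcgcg
MCM6: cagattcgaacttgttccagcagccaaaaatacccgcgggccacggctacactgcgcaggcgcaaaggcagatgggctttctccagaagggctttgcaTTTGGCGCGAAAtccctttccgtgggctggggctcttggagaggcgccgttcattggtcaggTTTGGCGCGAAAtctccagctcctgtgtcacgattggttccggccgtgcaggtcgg

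The regulators of the step into S phase are E2F1, E2F2 and E2F8, the cyclins E1 and E2 (CCNE1 and CCNE2), the phosphatase CDC25A, which frees cyclin-dependent kinases, and DTL, which marks CDT1 for destruction. E2F1 (NM_005225, chromosome 20 from 32263292 to 32274210 on hg19), an activating E2F, was expressed at 6.0 and 5.92 FPKM in the VEGFA-LNC controls and at 10.8, 2.08 and 3.14 FPKM in clones 1, 2 and 3. In the VEGFC-LNC set it was at 13 and 12.9 FPKM in the controls and at 10.4, 3.7 and 4.85 FPKM in the clones. The first clones were thus within 3 FPKM of the VEGFC-LNC controls and the other clones lay under 5 FPKM, below all 4 controls. The log2 fold changes were −0.51 (SE 0.63, FDR 0.713) and −1.16 (SE 0.63, FDR 0.343). E2F2, of the same class, was at 2.4, 0.094 and 0.266 FPKM in the VEGFA-LNC deletion clones, on 9 to 271 reads over the 10 libraries, so that its lowest values carry a large counting error. E2F8, a repressing E2F that is itself a target of the family, was at 5.68 and 5.58 FPKM in the VEGFC-LNC controls and 3.92, 0.925 and 1.76 FPKM in their clones. DTL had log2 fold changes of −0.92 (SE 0.83, FDR 0.592) and −1.66 (SE 0.83, FDR 0.308). Its level was 5.94 and 6.26 FPKM in the VEGFA-LNC controls and 12.3, 1.2 and 2.07 FPKM in the clones, and 13.6 and 12.6 FPKM against 7.59, 2.54 and 3.5 FPKM in the VEGFC-LNC set.

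The cyclins E went their own way in part. CCNE1 was at 4.82 and 5.12 FPKM in the VEGFA-LNC controls and at 4.86, 1.8 and 1.97 FPKM in the clones, and at 5.0 and 4.99 FPKM against 4.61, 3.25 and 3.21 FPKM in the VEGFC-LNC set. All 4 controls and both first clones lay between 4.61 and 5.12 FPKM, and the other 4 clones between 1.8 and 3.25 FPKM. It was the gene of the 53 with the lowest FDR upon VEGFA-LNC deletion (log2 fold change −0.91, SE 0.38, FDR 0.225), and its log2 fold change between the controls was 0.008, the smallest of the 53 in that contrast. CCNE2 was at 3.2 and 2.78 FPKM in the VEGFA-LNC controls and 4.59, 1.26 and 1.19 FPKM in the clones, and at 4.62 and 4.48 FPKM against 4.8, 1.77 and 1.64 FPKM in the VEGFC-LNC set. Its first VEGFC-LNC deletion clone stood above both controls, the only gene of the 53 to do so, and in the other clones it was under 1.8 FPKM. As a group the 7 regulators had medians of 0.85, −1.61 and −1.16 in the 3 VEGFA-LNC deletion clones and −0.51, −1.92 and −1.42 in the 3 VEGFC-LNC deletion clones, as log2 differences from their controls.

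**Figure D4:**
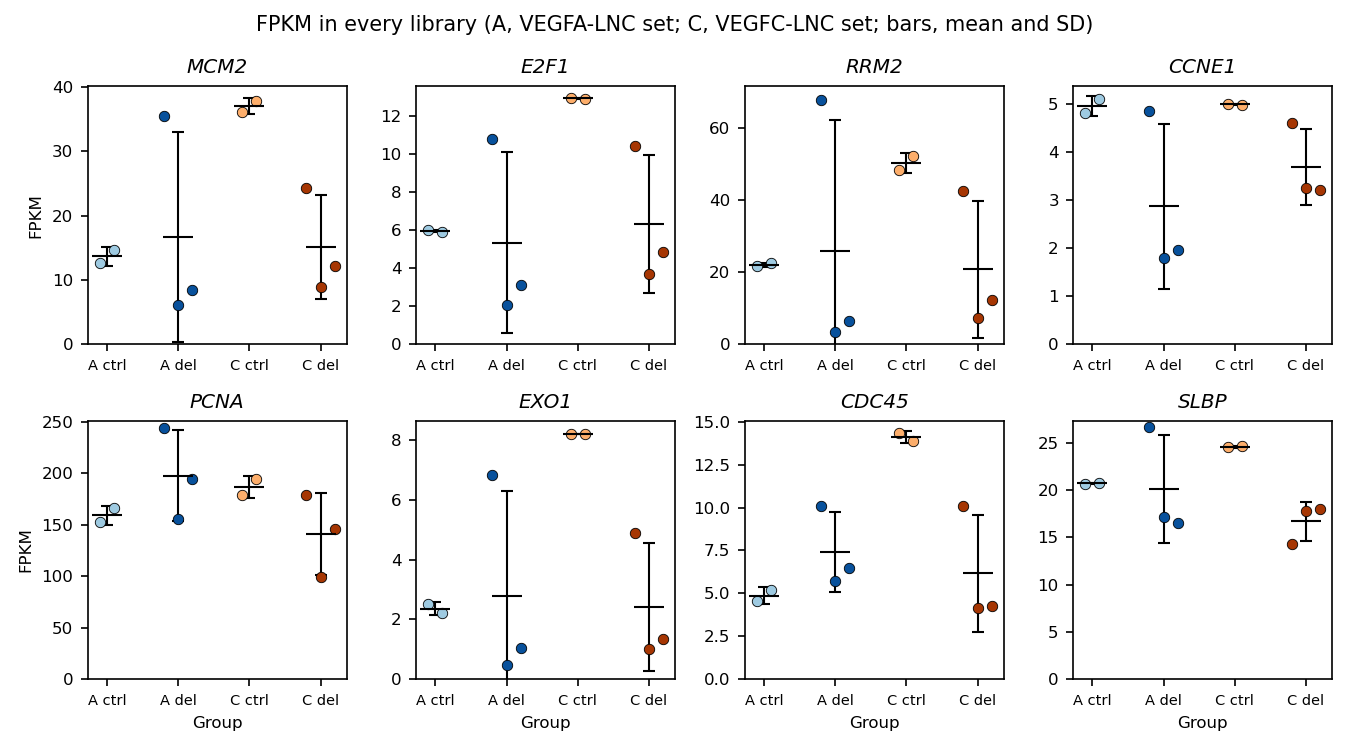
FPKM of 8 of the genes in every library (points), with the mean and SD of each group (black bars; where the mean less the SD is below 0 the bar is cut at 0), for controls and deletion clones of the VEGFA-LNC set (A) and the VEGFC-LNC set (C). The clone 1 points, drawn leftmost in each deletion group, are the highest of their group except for SLBP in the VEGFC-LNC set, where 14.3 FPKM is the lowest.

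Licensing factors load the helicase in G1. The 8 genes here had medians of 1.13, −1.24 and −0.64 in the VEGFA-LNC deletion clones and −0.61, −2.08 and −1.60 in the VEGFC-LNC deletion clones, and all 8 were below both controls in every VEGFC-LNC deletion clone. ORC1, the subunit of the origin recognition complex that comes and goes with the cell cycle, was at 3.02 and 2.81 FPKM in the VEGFA-LNC controls and 6.0, 0.569 and 0.877 FPKM in the clones. In the VEGFC-LNC set it was at 7.36 and 8.8 FPKM against 4.52, 0.808 and 2.17 FPKM, and its log2 fold change of −1.94 (SE 0.91, FDR 0.289) was second to that of EXO1. The change upon VEGFA-LNC deletion was −0.93 (SE 0.91, FDR 0.634), with the first clone above both controls and the others under 1 FPKM. CDC6, which loads the ring with it, was at 18.2, 1.66 and 3.41 FPKM in the VEGFA-LNC deletion clones and 13.3, 3.45 and 5.27 FPKM in the VEGFC-LNC deletion clones.

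The 6 subunits of the MCM2 to MCM7 ring form a ring of 1 copy each, and the highest of the 6 transcripts was 1.92 to 4.22 times the lowest within a library. MCM3 had the highest mean of the licensing genes, at 26.4 and 27 FPKM in the VEGFA-LNC controls, 49.1, 18 and 19.2 FPKM in the clones, 59.9 and 61.5 FPKM in the VEGFC-LNC controls and 44.3, 29.6 and 31.3 FPKM in their clones. MCM2 (chromosome 3 from 127317200 to 127341278 on hg19), a common stain for cells that are not resting, was at 12.7 and 14.7 FPKM in the VEGFA-LNC controls and 35.5, 6.13 and 8.36 FPKM in the clones. It was at 36.1 and 37.9 FPKM in the VEGFC-LNC controls and 24.3, 8.95 and 12.1 FPKM in their clones. The first VEGFA-LNC deletion clone was thus within 1 FPKM of the lower VEGFC-LNC control, and the other 2 VEGFA-LNC deletion clones were below all other libraries. The group means were 13.7 ± 1.47 FPKM (SD, n = 2) and 16.7 ± 16.4 FPKM (SD, n = 3) in the VEGFA-LNC set and 37 ± 1.24 FPKM (SD, n = 2) and 15.1 ± 8.11 FPKM (SD, n = 3) in the VEGFC-LNC set. The log2 fold changes of MCM2 were −0.16 (SE 0.68, FDR 0.926) and −1.41 (SE 0.68, FDR 0.294). The mean over the ring was 16.4 and 17.4 FPKM in the VEGFA-LNC controls, 40.2, 8.68 and 11.6 FPKM in the clones, 44.6 and 45 FPKM in the VEGFC-LNC controls, and 29.99, 13.9 and 17.6 FPKM in their clones.

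Activation of the helicase adds CDC45 and the GINS complex, here GINS1, with the help of the kinase CDC7 and of MCM10. MCM10 was next after EXO1 and ORC1 among fold changes upon VEGFC-LNC deletion, −1.80 on the log2 scale (SE 0.92, FDR 0.318). It was at 6.3 and 6.25 FPKM in those controls and 3.58, 0.836 and 1.67 FPKM in the clones, and at 1.88 and 1.74 FPKM against 5.55, 0.395 and 0.737 FPKM in the VEGFA-LNC set. GINS1, the highest of the 4, was at 8.51 and 9.55 FPKM in the VEGFA-LNC controls and 20.3, 3.55 and 5.57 FPKM in the clones, and at 17.8 and 16.8 FPKM and 12.4, 4.99 and 4.88 FPKM in the VEGFC-LNC set. CDC45 departed from this. It was at 4.53 and 5.21 FPKM in the VEGFA-LNC controls and at 10.1, 5.74 and 6.46 FPKM in the clones, all above the controls, and at 14.4 and 13.9 FPKM against 10.1, 4.12 and 4.24 FPKM in the VEGFC-LNC set. The log2 fold changes were 0.56 (SE 0.38, FDR 0.467) and −1.31 (SE 0.38, FDR 0.151), and their difference of −1.87 (SE 0.54) had an FDR of 0.129.

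The polymerases had the smallest median fold change of the 9 role groups upon VEGFC-LNC deletion, −0.91 on the log2 scale. Their medians by clone were 0.61, −0.41 and −0.41 in the VEGFA-LNC deletion clones and −0.34, −1.40 and −1.06 in the VEGFC-LNC deletion clones. Within each enzyme the subunits differed. POLA1, the catalytic subunit of polymerase alpha, which makes primers, was at 3.04 and 2.81 FPKM in the VEGFA-LNC controls and 8.95 and 8.39 FPKM in the VEGFC-LNC controls, while its partner POLA2 was at 7.77 and 8.9 FPKM in the former and 10.6 and 10.3 FPKM in the latter. POLA2 had the smallest fold change of the 53 upon VEGFA-LNC deletion, 0.013 on the log2 scale (SE 0.29, FDR 0.987), with 11.3, 6.15 and 8.5 FPKM in the clones. In the VEGFC-LNC deletion clones it was at 8.13, 4.51 and 5.92 FPKM, all below the controls. POLD1, the catalytic subunit of the lagging strand polymerase delta and the highest of the 6, was at 10.2 and 10.3 FPKM against 15.7, 8.16 and 7.88 FPKM in the controls and clones of VEGFA-LNC, and at 14.9 and 14 FPKM against 13.2, 5.79 and 8.05 FPKM in those of VEGFC-LNC. Its first clone was thus above the controls in the VEGFA-LNC set and below them in the other. POLD3, a smaller subunit, was at 4.47 and 4.8 FPKM in the VEGFA-LNC controls, 7.08, 5.82 and 4.56 FPKM in the clones, 8.27 and 8.3 FPKM in the VEGFC-LNC controls and 6.9, 4.98 and 5.49 FPKM in their clones. No clone of either set reached the VEGFC-LNC controls for POLD3. Of polymerase epsilon, which copies the leading strand, the second subunit POLE2 spanned 3.0 on the log2 scale from its lowest to its highest library and the catalytic POLE 2.53.

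PCNA (chromosome 20 from 5095599 to 5100647 on hg19), the clamp that tethers polymerases to DNA, had the highest level of the 53 and the smallest fold change upon VEGFC-LNC deletion. It was at 153 and 166 FPKM in the VEGFA-LNC controls and 244, 156 and 194 FPKM in the clones, and at 179 and 194 FPKM in the VEGFC-LNC controls and 178, 99.3 and 146 FPKM in their clones. The second VEGFA-LNC deletion clone, lowest of all libraries for 39 of the 53 genes, lay between its controls for PCNA, and the third lay above them. The log2 fold changes were 0.29 (SE 0.26, FDR 0.591) and −0.44 (SE 0.26, FDR 0.372). The clamp loader subunits RFC2 to RFC5 had means of 5.95 and 6.34 FPKM in the VEGFA-LNC controls, 13.2, 3.83 and 4.03 FPKM in the clones, 15.0 and 14.5 FPKM in the VEGFC-LNC controls and 10.7, 4.67 and 4.93 FPKM in their clones. PCNA was therefore 25.7 and 26.2 times the mean of the loader in the VEGFA-LNC controls, 18.4 times in the first clone and 40.7 and 48.2 times in the second and the third. Of the loader, RFC2 had a log2 fold change of 0.018 upon VEGFA-LNC deletion (SE 0.41, FDR 0.987), with 9.3 and 11 FPKM in the controls and 17.9, 8.21 and 7.31 FPKM in the clones. In the VEGFC-LNC set it was at 19.1 and 18.1 FPKM and 13.3, 6.75 and 6.85 FPKM.

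Among the factors that finish Okazaki fragments, the flap nuclease FEN1 followed the common pattern, with 49.4, 7.86 and 12.8 FPKM in the VEGFA-LNC deletion clones and 34.6, 10.4 and 13.9 FPKM in the VEGFC-LNC deletion clones. The ligase LIG1 did not. It was at 6.37 and 6.46 FPKM in the VEGFA-LNC controls and at 8.92, 6.92 and 8.1 FPKM in the clones, all higher, for a log2 fold change of 0.30 (SE 0.29, FDR 0.614). RPA2 and RPA3, subunits of the protein that coats single-stranded DNA, differed in range. RPA2 kept between 12.8 and 24.1 FPKM, and RPA3 was at 3.16 and 2.95 FPKM in the VEGFA-LNC controls and 8.93, 3.86 and 4.33 FPKM in the clones, on 35 to 367 reads over the libraries. DSCC1, part of the alternative loader that aids sister chromatid cohesion, had 15 to 242 reads and was at 3.91, 0.862 and 1.25 FPKM in the VEGFC-LNC deletion clones, the first of them between its controls of 3.78 and 4.43 FPKM. Claspin (CLSPN), which holds the fork to the checkpoint kinase, was at 7.46 and 6.42 FPKM in the VEGFA-LNC controls and 12.2, 2.11 and 4.1 FPKM in the clones, and at 16.5 and 16.5 FPKM and 10.6, 4.1 and 6.03 FPKM in the VEGFC-LNC set. TIPIN, the other fork protection gene, was at 7.73, 4.22 and 6.07 FPKM in the VEGFC-LNC deletion clones, all below the controls of 12 and 12.5 FPKM.

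The supply of nucleotides held the widest swing of the 53 genes. RRM2 (chromosome 2 from 10262863 to 10271546 on hg19), the subunit of ribonucleotide reductase that limits the enzyme in S phase, was at 21.7 and 22.5 FPKM in the VEGFA-LNC controls and at 67.9, 3.35 and 6.58 FPKM in the clones, a log2 range over all libraries of 4.3. In the VEGFC-LNC set it was at 48.3 and 52.3 FPKM and 42.7, 7.4 and 12.3 FPKM. The first VEGFA-LNC deletion clone was the highest of the 10 libraries and the second the lowest. With that spread the log2 fold changes of −0.94 (SE 1.14, FDR 0.706) and −1.67 (SE 1.14, FDR 0.433) did not pass the test. RRM1, the constant subunit, spanned 2.23 on the log2 scale, so that RRM1 over RRM2 was between 0.65 and 0.97 in the controls and the first clones and between 1.46 and 2.8 in the other 4 clones. Thymidine kinase TK1 was at 70.2, 7.52 and 9.14 FPKM in the VEGFA-LNC deletion clones and 46.8, 8.73 and 20.8 FPKM in the VEGFC-LNC deletion clones. Thymidylate synthase (TYMS), the highest of the 4 over all libraries, was at 43.3 and 43.1 FPKM in the VEGFA-LNC controls and 91.5, 41 and 47.4 FPKM in the clones, so that the second clone was just under its controls and the third above them. In the VEGFC-LNC set it was at 83.3 and 83.7 FPKM and 70.4, 28.4 and 51.9 FPKM. The exons of TYMS overlap those of ENOSF1 on the opposite strand over 39.9% of their length, and where reads are counted without regard to strand the genes cannot be told apart.

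The genes that rebuild chromatin behind the fork include UHRF1 and DNMT1, which copy DNA methylation to the new strand, the histone chaperones CHAF1A, CHAF1B and ASF1B, the ATPase ATAD2, and SLBP, which binds the stem-loop of histone mRNA. DNMT1 was at 31.5 and 29.8 FPKM in the VEGFA-LNC controls and 31.9, 10.3 and 14.8 FPKM in the clones, so that the first clone was level with the controls where most of the 53 genes were higher. Its log2 fold change of −0.85 (SE 0.42) had an FDR of 0.301, the second lowest of the 53 in that comparison. In the VEGFC-LNC set it was at 49.4 and 47.9 FPKM and 29.8, 16.6 and 22.9 FPKM. UHRF1 swung further, with 38.3, 4.11 and 6.65 FPKM in the VEGFA-LNC deletion clones and 31.7, 10.0 and 16.3 FPKM in the VEGFC-LNC deletion clones. DNMT1 over UHRF1 was 0.83 to 1.0 in the VEGFC-LNC controls and both first clones, 1.77 and 1.57 in the VEGFA-LNC controls and 1.41 to 2.51 in the other 4 clones. SLBP kept between 14.3 and 26.7 FPKM in all libraries.

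The repair genes of the list were EXO1, BRCA1, BRCA2, BLM and MCM8. EXO1 (chromosome 1 from 242012033 to 242053241 on hg19), a nuclease of mismatch repair and end resection, had the lowest fold change of the 53 upon VEGFC-LNC deletion, −2.05 on the log2 scale (SE 0.97, FDR 0.29). It was at 8.19 and 8.19 FPKM in the controls and 4.89, 1.0 and 1.35 FPKM in the clones, and at 2.52 and 2.2 FPKM and 6.81, 0.461 and 1.03 FPKM in the VEGFA-LNC set. MCM8, a helicase of recombination and the highest of the 5, was at 7.06 and 7.15 FPKM and 12.7, 3.53 and 4.71 FPKM in the VEGFA-LNC set and at 15.4 and 13.6 FPKM and 11, 4.99 and 6.01 FPKM in the VEGFC-LNC set. BRCA1 and BRCA2, which act in recombination, had log2 fold changes upon VEGFC-LNC deletion of −1.07 (SE 0.48, FDR 0.269) and −1.48 (SE 0.48, FDR 0.18). The group had medians of 0.82, −1.10 and −0.91 in the VEGFA-LNC deletion clones and −0.73, −1.68 and −1.53 in the VEGFC-LNC deletion clones.

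**Figure D5:**
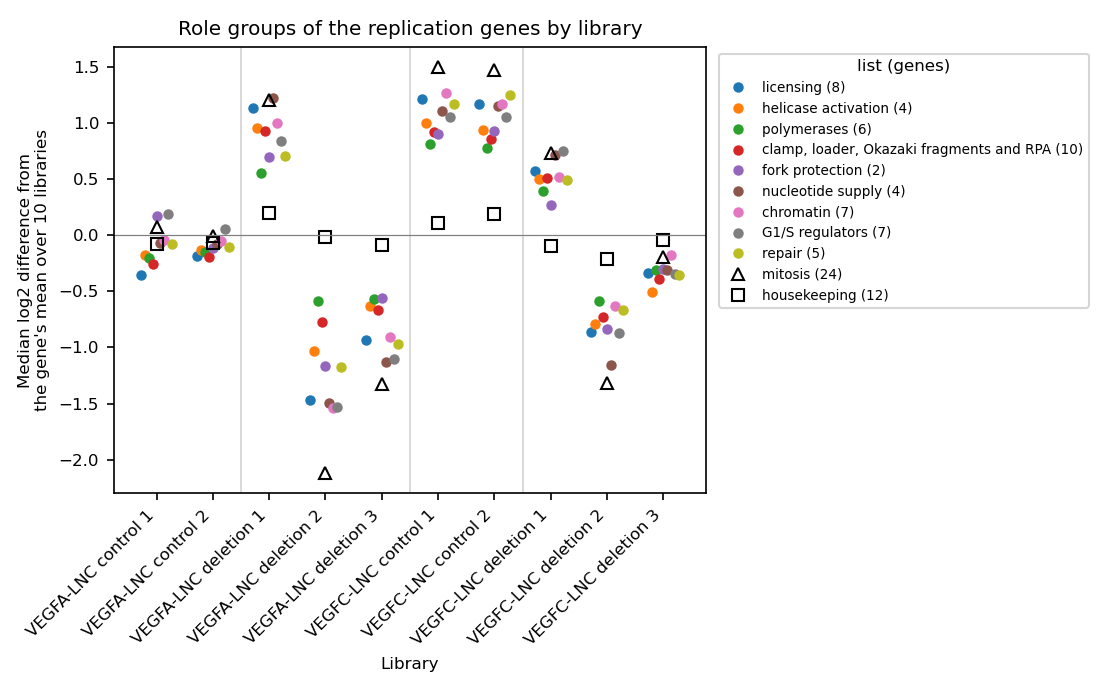
Median log2 difference from the gene's mean over the 10 libraries, by role group of the 53 genes (coloured points; number of genes in the legend), with 24 mitosis genes and 12 housekeeping genes for comparison. All 9 role groups lie above 0.5 in the first VEGFA-LNC deletion clone and above 0.7 in the VEGFC-LNC controls, and below −0.5 in the second and the third VEGFA-LNC deletion clones, while the housekeeping medians stay between −0.21 and 0.20.

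Across the 10 libraries each gene was compared with the median of the other 52. Pearson's r had a median of 0.97, and 44 of 53 genes were over 0.9, a description of 10 libraries in 4 groups. The median range from the lowest to the highest library was 2.53 on the log2 scale. MCM8, RFC5 and EXO1 were closest to the common course, with r = 0.996 each, and PCNA (r = 0.60), SLBP (0.63), RPA3 (0.72) and LIG1 (0.73) were farthest from it. The highest library was a VEGFC-LNC control for 35 genes and the first VEGFA-LNC deletion clone for 16. Depth did not go with level in the VEGFC-LNC controls, where 9493612 and 24197605 reads gave summed levels of 1289 and 1296 FPKM.

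Other genes of the pathway were taken from lists. Of 35 further replication factors, 35 of which were tested, 33 were lower upon VEGFC-LNC deletion and 22 upon VEGFA-LNC deletion, with median log2 fold changes of −0.80 and −0.12. GINS3, a GINS subunit, was called, lower upon VEGFC-LNC deletion, at 19.1 and 18.4 FPKM in the controls and 9.83, 9.99 and 11 FPKM in the clones (log2 fold change −0.86, SE 0.12, FDR 0.023), and in the VEGFA-LNC set it was at 9.55 and 9.84 FPKM in the controls and 11, 9.75 and 10.8 FPKM in the clones. Of 29 genes that control the step from G1 to S phase 24 were tested. LIN37, a subunit of the repressor complex DREAM, was called upon VEGFA-LNC deletion, at 10.3 and 9.61 FPKM in the controls and 5.67, 6.57 and 6.11 FPKM in the clones (log2 fold change −0.70, SE 0.13, FDR 0.0315), and 0 others of the list were. The VEGFC-LNC controls, at 4.72 and 4.93 FPKM, lay below those clones, and against all 4 controls the log2 fold change of LIN37 was −0.18 (FDR 0.80). CDKN1B, the inhibitor p27, was called upon VEGFC-LNC deletion, at 14.6 and 13.8 FPKM in the controls and 7.38, 7.95 and 6.13 FPKM in the clones (log2 fold change −0.99, SE 0.14, FDR 0.0269). CDKN1A, the p53 target p21, was at 165 and 174 FPKM in the VEGFA-LNC controls, 93.5, 171 and 210.3 FPKM in the clones, 40.5 and 38.9 FPKM in the VEGFC-LNC controls and 52.4, 66.5 and 104 FPKM in their clones. It was lowest in the VEGFC-LNC controls, and of the 3 clones of each set the first was the lowest. Between the controls its log2 fold change was −2.09 (SE 0.39, FDR 0.0147). Each of these 4 calls was lost without either control of the sets it compares, with FDR between 0.0973 and 0.394. Those of LIN37, GINS3 and CDKN1B were also lost without the second clone of their own set (FDR 0.0539, 0.0776 and 0.0542), and without either control of the other set (FDR between 0.0852 and 0.0918). With the replicate number of clones and controls as a block LIN37 (FDR 0.0744), GINS3 (FDR 0.0743) and CDKN1B (FDR 0.0789) were not called. Nor were they with only the compared libraries (FDR 0.145, 0.0712 and 0.0736). The call of LIN37 was lost without the third clone of its set (FDR 0.0776), and that of CDKN1B when scaled by the median of ratios (FDR 0.0525). Against all 4 controls the log2 fold changes of GINS3 and CDKN1B upon VEGFC-LNC deletion were −0.39 (FDR 0.454) and −0.67 (FDR 0.155). RB1 kept between 7.38 and 9.6 FPKM.

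Mitosis genes, 24 listed and tested, had larger differences than the 53. Their medians were 1.17, −2.19 and −1.41 in the VEGFA-LNC deletion clones and −0.71, −2.82 and −1.56 in the VEGFC-LNC deletion clones, all 24 lay below both controls in each VEGFC-LNC deletion clone, and 0 were called in either comparison by limma. MKI67, the proliferation antigen Ki-67, was at 8.35 and 7.65 FPKM in the VEGFA-LNC controls, 21.1, 1.33 and 2.78 FPKM in the clones, 33.3 and 30.1 FPKM in the VEGFC-LNC controls and 11, 2.59 and 8.55 FPKM in their clones. Of 12 housekeeping genes 0 were called. Their medians were 0.33, −0.13 and −0.046 in the VEGFA-LNC deletion clones and −0.14, −0.25 and −0.21 in the VEGFC-LNC deletion clones. Single genes of the 12 moved further. In 6 of them all 3 VEGFC-LNC deletion clones lay below both controls, and in 2 all 3 lay above. GAPDH was at 2195 and 2129 FPKM in the VEGFC-LNC controls and 779, 890 and 1420 FPKM in the clones (log2 fold change −1.12). B2M was at 278 and 303 FPKM in the VEGFA-LNC controls and 290, 1077 and 636 FPKM in the clones.

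The tested genes within 5 Mb of each of the 53, with the 53 left out, numbered 7 to 206. Where there were at least 20 of them, in 51 cases, their median log2 fold change was between −0.33 and 0.060 upon VEGFA-LNC deletion, between −0.28 and 0.18 upon VEGFC-LNC deletion and between −0.35 and 0.36 between the controls. All 53 genes lay below the median of their neighbours upon VEGFC-LNC deletion. The neighbours of LIN37, GINS3, CDKN1B and CDKN1A, which are outside the 53, were not examined. By the GENCODE annotation, exons of 13 of the 53 are overlapped by at least 100 bases of a gene on the opposite strand, CCNE2 by INTS8 over 37% of its exon length and MCM2 by a long non-coding RNA over 23.6%. On the same strand, exons of another gene overlap 33.3% of those of MCM8 and 16.8% of those of POLA2, and a pseudogene 21.1% of those of TIPIN. The library kit keeps strand, but whether the counting used it is not given in the sources used here.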

How the data were processed

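Total RNA of 10 EA.hy926 libraries was depleted of ribosomal RNA, made into directional libraries and sequenced as single reads. In the methods of the study the authors trimmed reads with Trim Galore 0.4.4, aligned them to GRCh37 with STAR 2.5.4b, counted them with featureCounts and tested them with edgeR. The deposited table is of another kind, with FPKM values that the authors gave per RefSeq transcript on hg19 (65572 rows) and 0 columns of other samples. How it was made is not given in the sources used here.

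For each symbol the transcript with the highest mean FPKM was kept. Since FPKM times length falls on whole steps, reads were recovered as counts from the deposited values, 100% of the values checked on transcripts of up to 1500 bases being whole within 0.1 of a read. Libraries held 6743973 to 24197605 reads, and the 53 genes 9 reads or more. Precision from depth covers counting error only.

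Genes with at least 1 cpm in at least 2 libraries were tested as log2(FPKM + 0.1) with limma 3.58.1 (R 4.3.3), which fitted 4 group means with an intensity trend and shared the spread over 10 libraries. P-values were adjusted by the Benjamini-Hochberg method over all 13334 genes. Fold changes on this scale understate those of low genes. The test was also run on simulated data, drawn for each gene with the same spread in all 4 groups. The real clones spread more than the controls, so that run cannot show how the test behaves on these libraries.

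The 53 genes and the other lists were chosen with earlier results of these data known, and no list was tested as a list. Values in every library were given for the highest gene of each role, the 3 largest and 2 smallest changes of each deletion comparison, and PCNA, MCM2, E2F1, CCNE1, CCNE2 and RRM2. CDC45, POLD3, LIG1 and other genes given library by library were named after their values were seen. Other lists were named by their calls, with MKI67, CDKN1A and RB1. GAPDH and B2M were named after their values were seen.

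Libraries of a group differed beyond counting noise (chi-square per degree of freedom 1.57 and 3.89 between controls, 19.7 to 147 between clones). Such an excess cannot show whether the controls of a set are separate cultures or clones. The main fit took each library as a separate sample, and an alternative averaged each control pair. Controls and clones of the same number did not deviate together (correlations −0.043 to 0.047). Clones of the same number did so between the sets (0.55, 0.41 and 0.22), so the fit was repeated with the number as a block. The block spans clones and controls, and so also ties controls to clones, which did not deviate together. No label says what the number marks. Alternatives were other scalings, pseudocounts, filters, transcripts, control groupings, limma-voom on the recovered reads, and each library left out.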

Additional observations from a re-analysis of the deposited data

Results flagged for a closer look

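GINS3, outside the 53 genes, stood out because the effects of the deletions on it differed by the interaction test of limma, by −0.98 on the log2 scale (SE 0.17, FDR 0.0306). Its log2 fold change was 0.12 upon VEGFA-LNC deletion and −0.86 upon VEGFC-LNC deletion, where 3 of 3 clones lay below both controls. The FDR was 0.0595 with the replicate number as a block, between 0.172 and 0.222 without any 1 of the controls, 0.0662 without the third VEGFA-LNC deletion clone, and 0.0513 and 0.0549 without the first and second VEGFC-LNC deletion clone.

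CDKN1B, also outside the 53 genes, stood out in the same way, with a difference of −1.43 (SE 0.20, FDR 0.017). For neither gene were the neighbours on the chromosome examined, so that a shift shared with them was not tested. CDKN1B was at 9.48 and 8.73 FPKM in the VEGFA-LNC controls and 12.7, 13 and 11.6 FPKM in the clones, all higher, and at 14.6 and 13.8 FPKM in the VEGFC-LNC controls and 7.38, 7.95 and 6.13 FPKM in the clones, all lower. The FDR was 0.0381 with the replicate number as a block, and between 0.0982 and 0.147 without any 1 of the controls. With each control pair averaged to 1 sample it was 0.667, and 0.846 for GINS3.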

How the results depend on the processing

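The number of the 53 genes called stayed at 0 for both deletions and for their difference under each alternative other than leaving out clones. Leaving out 1 library at a time gave 0 to 7 upon VEGFA-LNC deletion, 0 to 21 upon VEGFC-LNC deletion, 0 to 24 between the controls and 0 to 1 for the difference, and medians of −1.0 to 0.17, −1.59 to −1.01 and 1.16 to 1.20. Over all genes it gave 6 to 1732, 5 to 1158, 33 to 3068 and 5 to 694 calls.

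Genes called upon VEGFA-LNC deletion, 367 in all, were 29 against all 4 controls, 0 with control pairs averaged (834 at an unadjusted p under 0.05), 654 with no filter, 20 with only the compared libraries, 551 with limma-voom and 2677 without both first clones, which was added after the data were seen. Upon VEGFC-LNC deletion the 63 became 1 with averaged pairs, 26 with only the compared libraries and 2676 without both first clones. Between the controls the 1690 became 0 with averaged pairs (1224 at an unadjusted p under 0.05), 4401 and 3746, and the 2 of the 53 became 0 with averaged pairs or no filter and 45 with either of the others. The median there was 1.29 scaled by the median of ratios and 1.06 with a pseudocount of 1. For the difference the 194 became 0 with averaged pairs (689 at an unadjusted p under 0.05), 329 with no filter and 1363 without both first clones, when 37, 52 and 7 of the 53 were called upon VEGFA-LNC deletion, VEGFC-LNC deletion and for the difference. Causes were not tested beyond the fewer samples or genes that an alternative leaves.

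With the replicate number as a block 151, 20 and 86 genes were called upon VEGFA-LNC deletion, VEGFC-LNC deletion and for the difference, and 0 of the 53 in each. Under the block MCM2 (0.027), MCM3 (0.083) and POLD1 (0.075) turned positive upon VEGFA-LNC deletion. The block ties each control to the clones of its number, a pairing that no label gives. The third clones have no control of their number.

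Other small changes upon VEGFA-LNC deletion that turned sign were POLA2 (−0.15 against all 4 controls, −0.20 without both first clones), RFC2 (−0.42 and −0.38, and −0.011 with limma-voom), CDKN1A (0.87 and 0.16), TYMS (−0.096) and GINS3 (−0.35) against all 4 controls, and POLD1 (0.021) with the median of ratios. Upon VEGFC-LNC deletion LIN37 was at 0.025 with the median of ratios and CDKN1A at −0.20 against all 4 controls. Without 1 library the values upon VEGFA-LNC deletion ran from −1.20 to 0.037 for CLSPN, −1.0 to 0.24 for GINS1, −0.92 to 0.34 for MCM2, −0.52 to 0.20 for MCM3, −0.79 to 0.12 for MCM8, −0.20 to 0.23 for POLA2, −0.35 to 0.14 for POLD1, −0.38 to 0.26 for RFC2, −0.43 to 0.16 for CDKN1A and −0.0067 to 0.073 for RB1. Of 477 values of single genes under the alternatives other than 1 library left out, 414 kept direction and side of the threshold. Genes with few reads, such as E2F2 with 9 in 1 library, are limited by depth.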

Other observations

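The ratio of PCNA to the mean of MCM2 to MCM7, both in FPKM, was 9.32 and 9.56 in the VEGFA-LNC controls and 4.01 and 4.31 in the VEGFC-LNC controls. It was 6.06, 17.9 and 16.8 in the VEGFA-LNC deletion clones and 5.95, 7.16 and 8.30 in the VEGFC-LNC deletion clones.

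E2F1 over E2F2 was 8.73 and 9.24 in the VEGFA-LNC controls, 4.51, 22.1 and 11.8 in the clones, 5.50 and 5.98 in the VEGFC-LNC controls and 6.74, 9.84 and 10.6 in their clones, and the highest of these rests on 9 reads of E2F2. POLA2 over POLA1 was 2.56 and 3.16 in the VEGFA-LNC controls, 1.18 and 1.22 in the VEGFC-LNC controls, and 1.55 to 4.01 and 1.39 to 2.34 in the clones of the sets.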
